A study of Mus musculus with 15 samples.

Results

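Chemokines and their receptors were followed across 5 populations of mononuclear phagocytes from the small intestinal lamina propria (LP). The set held 53 of the 19938 genes with a probeset of their own, 34 ligands and 19 receptors, and was chosen by name. It comprised genes whose symbols began with Ccl, Cxcl, Ccr, Cxcr or Ackr and a number, together with Cx3cr1, Cx3cl1, Xcl1, Pf4 and Ppbp, and without Ccr7, Ccr9, Ccl17 and Ccl22. RNA was hybridized to 15 arrays, 3 for each of CD64+ macrophages (mϕ), CD103+CD11b+ DCs, CD103-CD11b- DCs, CD103-CD11b+ DCs and CD103+CD11b- DCs. All came from wild-type C57BL/6 mice in the steady state, which carried no transgene and received no treatment, and the labels give no age, while the study's methods describe young adult mice of both sexes for all experiments. The mϕ were gated as CD45+Ly6C-MHCII+CD64+CD11b+ cells and the DCs as CD64- cells, so that mϕ and CD11b+ DCs share CD11b and differ in CD64. Replicates are described as biological samples, the number of mice behind each is not given, and the p-values therefore measure only the spread between these samples.

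Chemokines are small secreted proteins that direct the movement of leukocytes along gradients, and they act through receptors that couple to inhibitory G proteins. CC and CXC chemokines are named for the spacing of their cysteines, and the atypical receptors bind chemokines without classical signalling and scavenge or display them. In the intestine, Ccr2 brings in the monocytes that renew LP mϕ, Cx3cr1 marks resident mϕ, and DCs carry antigen to the lymph nodes after gaining receptors for lymphatic chemokines.

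The genes used for sorting followed the labels. Itgae, the CD103 gene, had population means of 10.38 and 10.90 (log2 signal) in the CD103+ subsets, against 8.76 and 7.84 in the CD103- subsets and 5.09 in mϕ. For Itgam, the CD11b gene, the means were 9.53 to 10.24 in the 3 populations sorted as CD11b+, against 4.93 and 6.64 in the CD11b- subsets. Fcgr1, the CD64 gene, averaged 8.92 in mϕ, whereas no DC subset averaged more than 4.80. Markers of the pancreas, an organ that was not sorted, varied between arrays of every population: Ctrb1, a digestive enzyme precursor of pancreatic acinar cells, ran from 4.62 to 11.74 over the 15 arrays and was highest in replicate 2 of 4 populations and in replicate 3 of CD103-CD11b+ DCs. Each comparison was therefore also run without the array highest in Ctrb1 of each population. This left Ctrb1 uneven and fewer arrays. It was 10.09 in CD103+CD11b+ replicate 3 and 9.06 in CD103-CD11b- replicate 3, against 4.78 and 5.03 in CD103-CD11b+ replicates 1 and 2. The mean signal of 14 mϕ markers was 9.94 to 10.16 in mϕ, 5.84 to 6.13 in CD103+CD11b+ cells, 5.61 to 6.71 in CD103-CD11b- cells, 6.83 to 7.18 in CD103-CD11b+ cells and 5.24 to 5.40 in CD103+CD11b- cells. The mean of 7 markers of conventional DCs was 8.27 to 8.35 in mϕ and 9.83 to 10.15 in DCs.

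Sequences before the transcription start are shown for 6 ligands that the results turn on: Ccl12 and Ccl8, among the ligands with the largest excess in mϕ, the neighbouring genes Cxcl1 and Cxcl2, which attract neutrophils, and Cxcl9 and Cxcl10, which share the receptor Cxcr3, the first with passing differences among DC subsets and the second with none. Each is 300 bases from RefSeq (GRCm38.p6), 250 before and 50 after the start, on the strand of the gene. The windows lie at chr11:82101595-82101894 and chr11:82114935-82115234 on the plus strand, chr5:90890995-90891294 and chr5:90903649-90903948 on the plus strand, and chr5:92328030-92328329 and chr5:92348840-92349139 on the minus strand. Capitals mark letters that match, on either strand, an NF-kB motif (GGGANNTTCC), an interferon response element (GAAANNGAAA), an AP-1 motif (TGANTCA) or a TATA box (TATAAA).
Ccl12: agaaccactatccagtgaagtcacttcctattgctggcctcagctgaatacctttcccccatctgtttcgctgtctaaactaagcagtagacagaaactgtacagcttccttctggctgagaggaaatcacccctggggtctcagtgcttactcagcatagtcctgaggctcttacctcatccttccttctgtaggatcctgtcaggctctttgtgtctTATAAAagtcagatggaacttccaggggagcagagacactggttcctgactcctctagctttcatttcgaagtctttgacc
Ccl8: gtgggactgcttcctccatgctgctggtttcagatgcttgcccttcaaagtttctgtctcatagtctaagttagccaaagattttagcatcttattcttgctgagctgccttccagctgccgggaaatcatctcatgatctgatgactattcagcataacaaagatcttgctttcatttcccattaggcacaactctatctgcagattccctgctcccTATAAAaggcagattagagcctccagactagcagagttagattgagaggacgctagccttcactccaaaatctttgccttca
Cxcl1: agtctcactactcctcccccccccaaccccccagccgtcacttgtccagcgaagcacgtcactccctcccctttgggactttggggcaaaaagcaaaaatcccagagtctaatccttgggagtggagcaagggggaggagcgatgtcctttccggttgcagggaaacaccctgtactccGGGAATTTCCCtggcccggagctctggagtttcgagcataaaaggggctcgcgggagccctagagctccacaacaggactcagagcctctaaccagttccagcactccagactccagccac
Cxcl2: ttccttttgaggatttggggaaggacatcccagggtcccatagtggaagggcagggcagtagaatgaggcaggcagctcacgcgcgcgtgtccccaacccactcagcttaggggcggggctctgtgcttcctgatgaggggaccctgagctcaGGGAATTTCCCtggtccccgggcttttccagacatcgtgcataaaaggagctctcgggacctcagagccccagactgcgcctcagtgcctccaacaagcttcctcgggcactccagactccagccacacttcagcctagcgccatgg
Cxcl9: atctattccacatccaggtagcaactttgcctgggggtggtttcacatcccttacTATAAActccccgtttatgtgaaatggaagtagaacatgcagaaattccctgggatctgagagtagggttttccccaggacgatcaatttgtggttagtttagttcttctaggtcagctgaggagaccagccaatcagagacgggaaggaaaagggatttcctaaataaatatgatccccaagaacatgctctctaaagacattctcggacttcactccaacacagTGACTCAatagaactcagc
Cxcl10: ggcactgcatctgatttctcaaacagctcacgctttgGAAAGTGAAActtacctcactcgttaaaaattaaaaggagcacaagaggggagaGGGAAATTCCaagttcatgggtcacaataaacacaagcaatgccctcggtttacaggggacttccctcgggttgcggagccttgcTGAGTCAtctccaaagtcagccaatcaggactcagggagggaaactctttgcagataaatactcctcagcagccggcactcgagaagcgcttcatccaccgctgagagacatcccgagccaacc
Promoter windows were found for 40 of the 53 members, 42 windows in all. The NF-kB letters occurred in 6 of the 42 (14.3%), against 1.47% of 32851 windows of all genes, and the members were Cxcl1, Cxcl2, Cxcl3, Cxcl10, Ccl1 and Ccr3. In Cxcl1 and Cxcl2 the capital run holds 2 overlapping matches of opposite strands. The interferon letters were in 7.14% of member windows and 3.44% of all windows, the AP-1 letters in 19.0% and 7.81%, TATAAA in 33.3% and 13.6%, and the ETS letters GAGGAAG, not capitalized here, in 16.7% and 13.6%. Cxcl10 held the NF-kB, interferon and AP-1 letters, whereas Cxcl9 held the AP-1 letters and TATAAA. Relative to the transcription start, the Cxcl9 TATAAA began at -195 and its AP-1 letters at 31, after the start. TATAAA began at -31 in Ccl12 and at -32 in Ccl8. A match is a string of letters and was not tested as a binding site. Several members are neighbours among the protein-coding genes of that assembly, in the order Ccl2, Ccl7, Ccl11, Ccl12, Ccl8 and Ccl1, in the order Ccl5, Ccl9, Ccl6, Ccl3 and Ccl4, and in the order Cxcl5, Ppbp, Pf4, Cxcl3, Cxcl15, Cxcl1 and Cxcl2.

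Across the 5 populations, 25 of the 53 members differed, 18 ligands and 7 receptors, by a moderated F test (adjusted p under 0.01 and a range of population means over 1 on the log2 scale). The same rule called 10.7% of all genes and 47.2% of the members. All 18 ligands had their highest mean in mϕ, as did the receptors Ccr1, Ccr2, Cxcr4 and Cx3cr1. Cxcr3 was highest in CD103+CD11b- DCs, and Ccr6 and Ccr10 were highest in CD103-CD11b- DCs. The arrays measured bulk RNA of sorted cells, in which fewer cells with a transcript and less RNA per cell cannot be told apart.

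**Figure D1:**
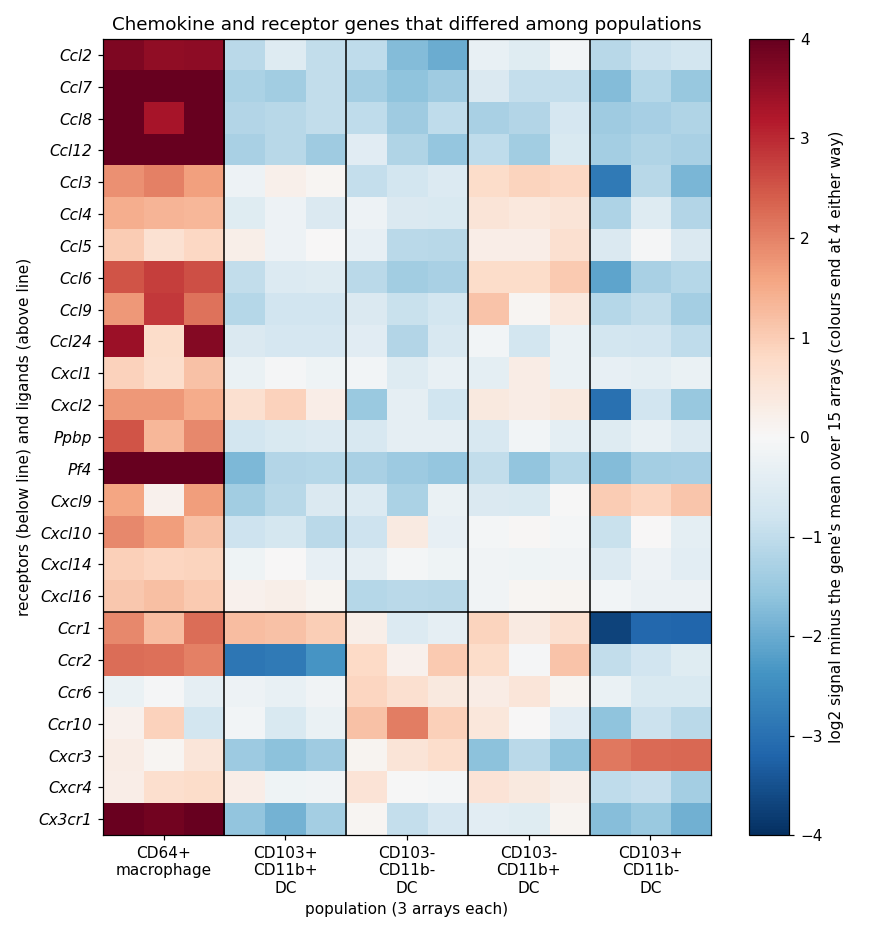
Log2 signal of the 25 members that differed, minus each gene's mean over the 15 arrays, with genes in rows (18 ligands above the line, 7 receptors below) and arrays in columns, 3 for each population. All 18 ligands have their highest mean in mϕ, at the left, and Cxcr3 is the only receptor whose highest mean is in CD103+CD11b- DCs.

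The mϕ were set against the mean of the 4 DC subsets to ask which chemokine genes separate the lineages. Of the 53 members, 22 were higher in mϕ, where 3.38% of all genes were, and 0 were lower, where 2.19% of all genes were. Without mϕ replicate 2, and without the arrays highest in Ctrb1, 21 were higher and 1 was lower, Ccl25. The 22 were 19 of the 34 ligands and 3 of the 19 receptors. The median log2 difference was 1.07 over the ligands and 0.12 over the receptors, against -0.0045 over all genes. In 19 of the 22 the mϕ arrays lay above every DC array, the exceptions being Ccl5, Ccl11 and Cxcl9. The call rule itself favours such separation, and its share among all called genes was not counted.

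The ligands that attract monocytes were all higher in mϕ (4 of 4, median log2 difference 5.78). Ccl2, the main ligand of Ccr2, had log2 signals of 10.45, 10.24 and 10.29 in mϕ, against 4.73 to 6.60 with a median of 5.78 over the 12 DC arrays (log2 difference 4.53, SE 0.17, adjusted p = 3.6e-11). Ccl7, a further Ccr2 ligand, had 11.60, 10.42 and 11.10 in mϕ, against 4.38 to 5.53 with a median of 4.79 in DCs (6.18, SE 0.18, adjusted p = 4.0e-12). The 3 mϕ arrays were close for Ccl2 and more spread for Ccl7, and neither gene overlapped with DCs. Ccl8, which in mice acts through Ccr8, had 10.45, 8.51 and 10.51 in mϕ, against 3.81 to 4.55 with a median of 4.04 in DCs (5.75, SE 0.30, adjusted p = 1.2e-09). Ccl12, a mouse ligand of Ccr2, had 10.68, 9.68 and 9.77 in mϕ, against 3.87 to 4.95 with a median of 4.14 in DCs (5.80, SE 0.22, adjusted p = 4.9e-11). Replicate 2 of mϕ was the lowest of the 3 mϕ arrays for all of these ligands. Ccl1, which neighbours Ccl8 in the genome and binds Ccr8, did not differ among populations by the F test and stayed between 3.86 and 4.24 on all 15 arrays.

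Pf4 and Ppbp encode chemokines best known from platelet granules. Pf4 had log2 signals of 11.36, 11.01 and 11.26 in mϕ, against 3.93 to 4.72 with a median of 4.37 in DCs, and its log2 difference of 6.87 (SE 0.15, adjusted p = 1.5e-13) was the largest of any member in this comparison. Ppbp, which lies beside it, had 6.57, 5.39 and 5.98 in mϕ, against 3.33 to 3.94 with a median of 3.53 in DCs (2.40, SE 0.17, adjusted p = 5.2e-08). Both genes were above every DC array in each mϕ array. The mean signal of 4 measured platelet and megakaryocyte markers (Itga2b, Gp9, Treml1 and Itgb3) was 4.92 to 5.02 in mϕ and 4.76 to 5.15 in DCs, and none of the 4 reached a mean of 8 in any population. The part of platelets in the Pf4 and Ppbp values was not tested.

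**Figure D2:**
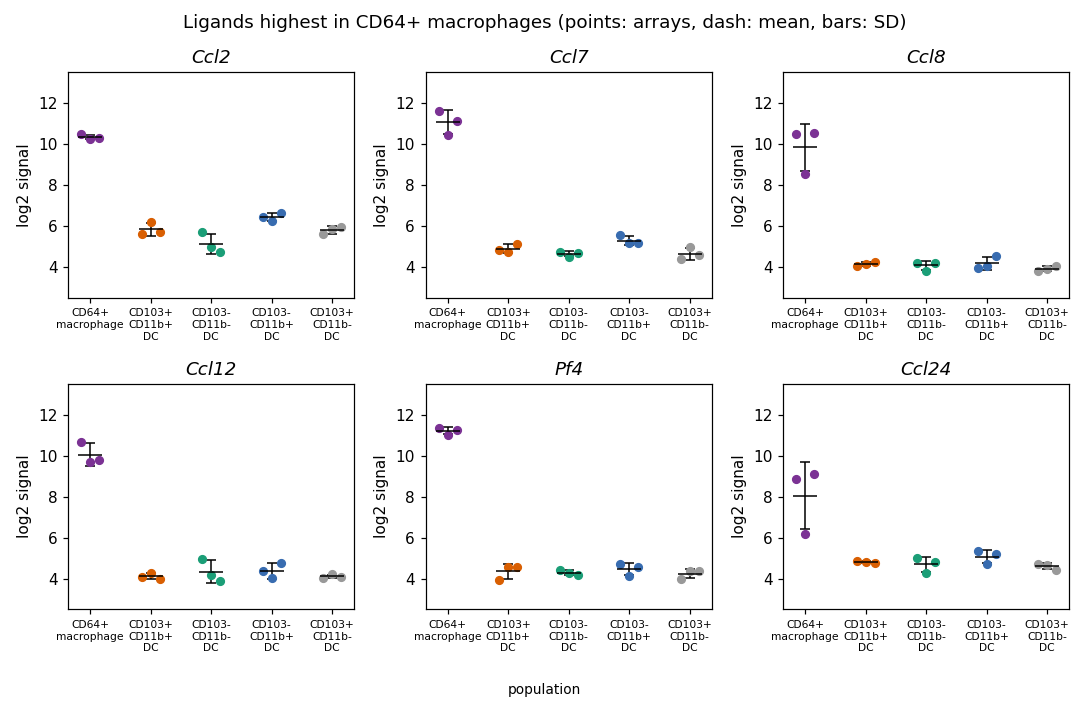
Log2 signal on each array (points), with the mean (dash) and SD (bars) of 3 arrays, for 6 ligands with mϕ at the left of each panel and CD103+CD11b- DCs at the right. In mϕ, Pf4 lies between 11.01 and 11.36 and Ccl24 between 6.17 and 9.11, and no DC array reaches them in any of the 6 panels.

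The macrophage inflammatory proteins, ligands of Ccr1 and related receptors, were all higher in mϕ than in the DC mean (5 of 5, median log2 difference 2.28), although DCs also gave clear signals for several of them. Ccl3 had 12.47, 12.68 and 12.28 in mϕ, against 7.82 to 11.56 with a median of 10.28 in DCs (2.28, SE 0.23, adjusted p = 2.3e-06). Ccl4 had 12.26, 12.15 and 12.13 in mϕ, against 9.55 to 11.33 with a median of 10.30 in DCs (1.73, SE 0.14, adjusted p = 1.4e-07). The mϕ lay above every DC array for both, with little spread among the mϕ arrays. Ccl6, a mouse Ccr1 ligand, had 10.21, 10.46 and 10.28 in mϕ, against 5.60 to 8.73 with a median of 6.67 in DCs (3.28, SE 0.16, adjusted p = 6.5e-10). Ccl9, its neighbour and likewise a Ccr1 ligand, had 7.69, 8.78 and 8.13 in mϕ, against 4.59 to 7.08 with a median of 5.17 in DCs (2.81, SE 0.21, adjusted p = 6.2e-08). For both genes the DC arrays spread over more than the mϕ arrays did. Ccl5, which attracts T cells, had 9.75, 9.32 and 9.54 in mϕ, against 7.62 to 9.37 with a median of 8.61 in DCs, a log2 difference close to the limit of 1 (1.02, SE 0.17, adjusted p = 2.7e-04). Its ranges overlapped, and without any of 7 single arrays (mϕ replicate 1, CD103+CD11b+ replicate 2, CD103-CD11b- replicates 2 and 3, CD103-CD11b+ replicate 1, CD103+CD11b- replicates 1 and 3) the difference was 0.91 to 0.999 and no longer passed. The mean of 13 T cell, NK cell and ILC markers was 5.30 to 5.57 in mϕ and 4.36 to 5.25 in DCs, and its part in the Ccl5 result was not tested. Single markers of the list differed: Cd4 averaged 9.17 in mϕ and 5.30 to 5.79 in the DC subsets, whereas Thy1 averaged 6.92 and 5.91 to 9.21. In mϕ and the DC subsets, Cd3e averaged 5.96 and 5.36 to 5.66, Cd3g 6.30 and 4.72 to 5.33, and Cd3d 4.36 and 3.86 to 4.04.

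The eotaxins attract eosinophils through Ccr3. Ccl24 had 8.87, 6.17 and 9.11 in mϕ, against 4.29 to 5.34 with a median of 4.78 in DCs (3.25, SE 0.42, adjusted p = 2.5e-05). The mϕ arrays were far apart, replicate 2 being the lowest, yet all were above DCs. Ccl11 had 6.91, 6.78 and 5.82 in mϕ, against 4.79 to 6.10 with a median of 5.52 in DCs (1.01, SE 0.23, adjusted p = 0.0036). It overlapped with DCs, did not pass the F test, and its difference was 0.80 to 0.99 without any of 8 single arrays (mϕ replicates 1 and 2, CD103+CD11b+ replicates 1 and 2, CD103-CD11b- replicate 2, CD103-CD11b+ replicate 1, CD103+CD11b- replicates 1 and 2), where it no longer passed. Ccl26 stayed between 3.40 and 3.72 on all arrays. Markers of eosinophils and mast cells (8 measured) averaged 3.74 to 3.85 in mϕ and 3.60 to 4.04 in DCs, and their part in the Ccl24 and Ccl11 values was not tested.

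Among ligands that attract neutrophils, 3 of 6 were higher in mϕ. Cxcl2 had 11.51, 11.51 and 11.28 in mϕ, against 6.80 to 10.71 with a median of 9.74 in DCs (2.07, SE 0.32, adjusted p = 1.7e-04). Cxcl1 averaged 6.83 ± 0.23 (SD, n = 3) in mϕ and 5.57 to 5.79 in the DC subsets (1.16, SE 0.13, adjusted p = 6.1e-06). Neither overlapped between mϕ and DCs, and the remaining gene of the 3 was Ppbp. Cxcl3, Cxcl5 and Cxcl15 did not pass and stayed at or under 5.20 on every array. Cxcl1, Cxcl2 and Cxcl3 all held the NF-kB letters, and a relation of these letters to the signals was not tested. The receptors for these ligands, Cxcr1 and Cxcr2, did not pass the F test, with population means of 3.80 to 3.97 and of 3.75 to 4.73.

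The interferon-induced ligands of Cxcr3, which draw in activated T cells and NK cells, were Cxcl9, Cxcl10 and Cxcl11. Cxcl10 had 11.89, 11.66 and 11.15 in mϕ, against 8.89 to 10.34 with a median of 9.61 in DCs (2.00, SE 0.22, adjusted p = 4.7e-06). Cxcl9 had 11.72, 10.29 and 11.80 in mϕ, against 8.74 to 11.23 with a median of 9.57 in DCs (1.42, SE 0.28, adjusted p = 0.0012). Cxcl10 did not overlap, while Cxcl9 in mϕ replicate 2 lay below CD103+CD11b- DCs. Without mϕ replicate 1 or replicate 3 the Cxcl9 difference was 1.20 and 1.16 and no longer passed. Cxcl11 did not pass, with population means of 5.42 to 5.93. Cxcl16, the ligand of Cxcr6, had 10.87, 10.97 and 10.84 in mϕ, against 8.63 to 10.03 with a median of 9.66 in DCs (1.39, SE 0.07, adjusted p = 4.9e-10). Cxcl14, a chemokine of many epithelia, averaged 5.55 ± 0.04 (SD, n = 3) in mϕ and 4.26 to 4.50 in the DC subsets (1.12, SE 0.08, adjusted p = 8.1e-08).

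Since the mϕ share CD11b with CD103-CD11b+ DCs, these populations were also compared directly. In mϕ, 19 members were higher, where 3.02% of all genes were, and 0 were lower, where 2.16% of all genes were. All 19 passed without overlap of the arrays, a separation that was likewise not counted over all called genes. The monocyte-attracting ligands kept log2 differences of 3.91 (Ccl2) to 5.77 (Ccl7), and Pf4 had 6.73 (SE 0.19, adjusted p = 6.8e-12). Ccl3, Ccl4, Ccl5 and Cxcl2 had differences of 0.9997, 0.90, 0.42 and 1.29 and did not pass. The Cxcl2 arrays did not overlap, and its adjusted p was 0.040 with all populations in the fit. With only these populations fitted it was 1.6e-04, and without CD103+CD11b- replicate 1 it was 0.0022, and Cxcl2 passed in both. Ccl11 (without mϕ replicates 1 or 2 or CD103-CD11b+ replicates 1 or 2, difference 1.01 to 1.29, adjusted p up to 0.037), Ccr1 (without mϕ replicates 1 or 3 or CD103-CD11b+ replicates 2 or 3, 0.97 to 1.18, adjusted p up to 0.019), Cxcl1 (without mϕ replicate 3 or CD103-CD11b+ replicates 1 or 3, 0.90 to 0.97) and Cxcl9 (without mϕ replicates 1 or 3 or CD103-CD11b+ replicates 1 or 2, 1.26 to 1.44, adjusted p up to 0.034) no longer passed when such an array was left out.

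The largest differences among DC subsets, those of Ccr1, Cxcr3 and Ccr2, were differences of receptors. Ccr1, the receptor of the macrophage inflammatory proteins, had log2 signals of 9.61, 8.92 and 9.91 in mϕ, 8.90, 8.86 and 8.66 in CD103+CD11b+ cells, 7.91, 7.14 and 7.31 in CD103-CD11b- cells, 8.57, 8.03 and 8.31 in CD103-CD11b+ cells and 3.98, 4.54 and 4.52 in CD103+CD11b- cells. It was thus low in a single subset, and its log2 difference from CD103+CD11b- DCs was 4.46 for the CD103+CD11b+ subset (SE 0.17, adjusted p = 3.1e-08), 3.96 for the CD103-CD11b+ subset (SE 0.17, adjusted p = 8.1e-08) and 3.11 for the CD103-CD11b- subset (SE 0.25, adjusted p = 8.7e-07). The mϕ exceeded the DC mean by 2.26 (SE 0.19, adjusted p = 3.8e-07).

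Cxcr3, the receptor of Cxcl9 and Cxcl10, went the opposite way, with 6.47, 6.25 and 6.63 in mϕ, 4.69, 4.51 and 4.74 in CD103+CD11b+ cells, 6.26, 6.68 and 6.86 in CD103-CD11b- cells and 4.53, 5.09 and 4.54 in CD103-CD11b+ cells, against 8.27, 8.43 and 8.46 in CD103+CD11b- cells. The arrays of CD103+CD11b- DCs lay above all others. The log2 difference from them was -3.74 for the CD103+CD11b+ subset (SE 0.14, adjusted p = 3.7e-08), -3.66 for the CD103-CD11b+ subset (SE 0.14, adjusted p = 4.8e-08) and -1.78 for the CD103-CD11b- subset (SE 0.17, adjusted p = 5.0e-06). CD103-CD11b- DCs were higher than CD103-CD11b+ DCs by 1.88 (SE 0.17, adjusted p = 1.8e-05), and mϕ were higher than CD103-CD11b+ DCs by 1.73 (SE 0.17, adjusted p = 2.6e-06). The mean of 7 markers of the cDC1 lineage, to which CD103+CD11b- DCs belong, was 6.56 to 6.93 in CD103+CD11b+ cells, 8.26 to 8.72 in CD103-CD11b- cells, 6.64 to 6.71 in CD103-CD11b+ cells and 10.08 to 10.34 in CD103+CD11b- cells, and its part in the Cxcr3 differences was not tested.

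Ccr2, through which monocytes leave the bone marrow, was lowest in CD103+CD11b+ DCs. It had 4.36, 4.43 and 4.90 there, against 7.98, 7.21 and 8.37 in CD103-CD11b+ DCs (log2 difference -3.29, SE 0.26, adjusted p = 1.1e-04) and 6.26, 6.49 and 6.75 in CD103+CD11b- DCs (-1.94, SE 0.26, adjusted p = 3.5e-04). It had 9.48, 9.46 and 9.25 in mϕ and 8.04, 7.43 and 8.28 in CD103-CD11b- DCs, and mϕ exceeded the DC mean by 2.69 (SE 0.21, adjusted p = 1.1e-07). None of the CD103+CD11b+ arrays reached any array of another population. Without the array highest in Ctrb1 of each population the difference between CD103+CD11b+ and CD103-CD11b+ DCs was -2.96 with an adjusted p of 0.015. CD103-CD11b+ DCs were above CD103+CD11b- DCs by 1.35 (SE 0.26, adjusted p = 0.0043) and CD103-CD11b- DCs by 1.41 (SE 0.26, adjusted p = 0.0023). The first of these calls was lost, at 1.09 to 1.34 and an adjusted p of up to 0.021, without CD103-CD11b+ replicates 1 or 3 or CD103+CD11b- replicates 1 or 2. The other was lost, at 1.23 to 1.41 and an adjusted p of up to 0.015, without CD103-CD11b- replicates 1 or 3 or CD103+CD11b- replicates 1 or 2.

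Cx3cr1, the fractalkine receptor, had 10.66, 10.57 and 11.13 in mϕ, against 4.79 to 6.81 with a median of 5.55 over the 12 DC arrays (log2 difference 5.11, SE 0.19, adjusted p = 4.9e-11). Among DCs it had 5.13, 4.82 and 5.35 in CD103+CD11b+ cells, 6.79, 5.74 and 6.01 in CD103-CD11b- cells, 6.28, 6.22 and 6.81 in CD103-CD11b+ cells and 4.98, 5.20 and 4.79 in CD103+CD11b- cells. Both CD103- subsets lay above both CD103+ subsets, far below mϕ. CD103+CD11b+ DCs were lower than CD103-CD11b+ DCs by a log2 difference of -1.34 (SE 0.18, adjusted p = 0.0025), which was -1.35 and -1.20 and no longer passed without CD103+CD11b+ replicates 1 and 2. CD103-CD11b+ DCs were higher than CD103+CD11b- DCs by 1.45 (SE 0.18, adjusted p = 2.1e-04) and CD103-CD11b- DCs by 1.19 (SE 0.25, adjusted p = 0.0049). The last call was lost, at 0.89 to 1.28 and an adjusted p of up to 0.030, without CD103-CD11b- replicates 1 or 3 or CD103+CD11b- replicates 1 or 3. The mean of the mϕ markers was also higher in every CD103-CD11b+ array than in every array of the other DC subsets, and its part in the Ccr2, Cx3cr1, Ccl6 and Ccl9 values was not tested.

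**Figure D3:**
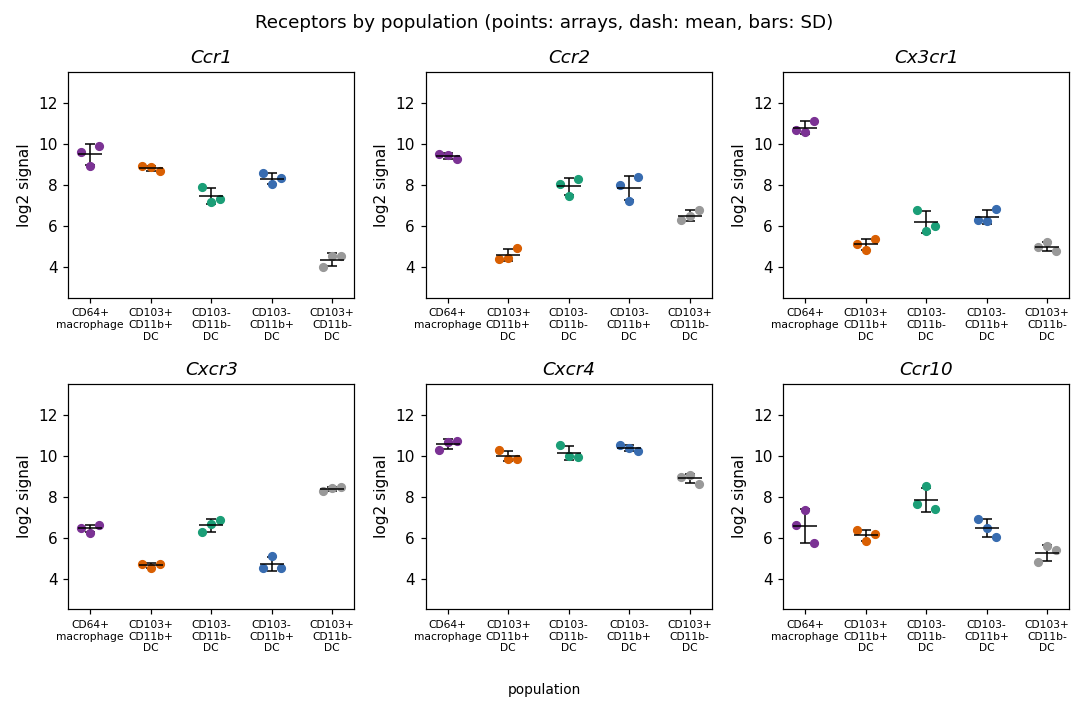
Log2 signal on each array (points), with the mean (dash) and SD (bars) of 3 arrays, for 6 receptors with mϕ at the left of each panel and CD103+CD11b- DCs at the right. Ccr1 falls to between 3.98 and 4.54 in CD103+CD11b- DCs, where Cxcr3 reaches 8.27 to 8.46, and Ccr2 is at 4.36 to 4.90 in CD103+CD11b+ DCs.

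Cxcr4, the receptor of Cxcl12 and a retention signal in bone marrow, gave a clear signal on every array, with 10.26, 10.66 and 10.73 in mϕ, 10.26, 9.83 and 9.83 in CD103+CD11b+ cells, 10.52, 9.98 and 9.91 in CD103-CD11b- cells, 10.53, 10.37 and 10.21 in CD103-CD11b+ cells and 8.98, 9.06 and 8.62 in CD103+CD11b- cells. Only CD103+CD11b- DCs stood apart, below all other arrays, by log2 differences of 1.09 (CD103+CD11b+ DCs, SE 0.15, adjusted p = 4.4e-04), 1.48 (CD103-CD11b+ DCs, SE 0.15, adjusted p = 4.3e-05) and 1.25 (CD103-CD11b- DCs, SE 0.18, adjusted p = 2.9e-04). The 1.09 was 0.94 and 0.95 without CD103+CD11b+ replicate 1 and CD103+CD11b- replicate 3, under the limit of 1. Ccr10, the receptor of Ccl28 that IgA plasma cells carry, had 7.62, 8.51 and 7.41 in CD103-CD11b- DCs, against 4.84, 5.60 and 5.38 in CD103+CD11b- DCs (2.58, SE 0.37, adjusted p = 2.6e-04). CD103-CD11b+ DCs, with 6.90, 6.47 and 6.02, exceeded CD103+CD11b- DCs by 1.19 (SE 0.24, adjusted p = 0.0057), a call lost without CD103-CD11b+ replicates 1 or 2, CD103+CD11b- replicates 1 or 3 or CD103+CD11b+ replicate 3 (0.97 to 1.25, adjusted p up to 0.024). The mean of 9 B cell and plasma cell markers was 8.74 to 9.27 in CD103-CD11b- cells, 7.66 to 8.48 in CD103-CD11b+ cells and 6.77 to 7.04 in CD103+CD11b- cells. Among them Pou2af1 averaged 9.72, 7.73 and 6.27 and Mzb1 10.53, 8.78 and 6.85 in these subsets. Igha, with 10.16, 10.58 and 8.86, and Ms4a1, with 3.74, 3.72 and 4.09, did not follow that order. The part of these markers in the Ccr10 differences was not tested. Ccr6, the receptor of Ccl20, was dim everywhere, with 4.95 ± 0.22 (SD, n = 3) in CD103-CD11b- cells and 3.83 ± 0.20 in CD103+CD11b- cells (1.12, SE 0.14, adjusted p = 5.9e-05). The mean of the B cell and plasma cell markers above was higher in the same subset, and 5 measured markers of plasmacytoid DCs averaged 8.43 to 8.77 in CD103-CD11b- cells and 6.85 to 6.98 in CD103+CD11b- cells. These 5 were Siglech, Bst2, Ly6d, Tcf4 and Ccr9, the last a chemokine receptor left out of the member set. Siglech averaged 6.28 and 4.24 in these subsets, and Ccr9 8.85 and 8.24. The part of either list in the Ccr6 difference, and of the plasmacytoid list in those of Ccr10, was not tested.

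The counts of members by comparison among the 3 subsets with CD103 or CD11b were as follows. In CD103+CD11b+ against CD103+CD11b- DCs, 4 members were higher (1.95% of all genes were), namely Ccr1, Cxcl2, Ccl3 and Cxcr4, and 3 were lower (1.32% of all genes were), namely Cxcr3, Cxcl9 and Ccr2. In CD103-CD11b+ against CD103+CD11b- DCs, 10 were higher (2.02% of all genes), namely Ccr1, Ccl3, Ccl6, Cxcl2, Ccl9, Cxcr4, Ccl4, Cx3cr1, Ccr2 and Ccr10, and 2 were lower (1.3% of all genes), namely Cxcr3 and Cxcl9. In CD103+CD11b+ against CD103-CD11b+ DCs, 0 were higher (0.231% of all genes) and 4 were lower (0.306% of all genes), namely Ccr2, Ccl6, Ccl9 and Cx3cr1. The arrays did not overlap for any of these calls, which the call rule itself favours, and overlap was not counted over all called genes. These comparisons share samples, so that their calls are not independent.

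Of the macrophage inflammatory proteins, 4 of 5 were higher in CD103-CD11b+ than in CD103+CD11b- DCs (median log2 difference 1.70, against 0.04 over all genes). Ccl3 had 10.45, 10.86 and 10.75 in CD103+CD11b+ cells and 11.38, 11.56 and 11.50 in CD103-CD11b+ cells, against 7.82, 9.54 and 8.82 in CD103+CD11b- cells. Both CD11b+ subsets lay above the CD103+CD11b- arrays, which were far apart, with log2 differences of 1.96 (SE 0.32, adjusted p = 0.0016) and 2.75 (SE 0.32, adjusted p = 1.4e-04). With a variance trend and robust estimation the 1.96 no longer passed (adjusted p = 0.014). Ccl4 had 10.31, 10.61 and 10.21 in CD103+CD11b+ cells and 11.33, 11.21 and 11.31 in CD103-CD11b+ cells, against 9.55, 10.29 and 9.62 in CD103+CD11b- cells. Its difference was 0.56 in CD103+CD11b+ cells, which overlapped and did not pass, and 1.47 in CD103-CD11b+ cells, which did not overlap (SE 0.18, adjusted p = 1.7e-04). Ccl5 had 8.96, 8.53 and 8.74 in CD103+CD11b+ cells, 8.99, 8.9995 and 9.37 in CD103-CD11b+ cells and 8.15, 8.69 and 8.16 in CD103+CD11b- cells, and none of these 3 subsets differed from another by more than 1.

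Ccl6 and Ccl9 distinguished CD103-CD11b+ DCs from both CD103+ subsets. Ccl6 had 6.71, 7.15 and 7.16 in CD103+CD11b+ DCs, against 8.43, 8.42 and 8.73 in CD103-CD11b+ DCs (log2 difference -1.52, SE 0.22, adjusted p = 0.0037). CD103-CD11b+ DCs were also above CD103+CD11b- DCs, which had 5.60, 6.38 and 6.54 (2.36, SE 0.22, adjusted p = 2.4e-05). Ccl9 had 4.80, 5.17 and 5.17 in CD103+CD11b+ DCs, against 7.08, 6.03 and 6.36 in CD103-CD11b+ DCs (-1.44, SE 0.22, adjusted p = 0.0059). CD103+CD11b- DCs had 4.80, 4.97 and 4.59, below CD103-CD11b+ DCs (1.70, SE 0.22, adjusted p = 3.4e-04). No CD103-CD11b+ array was reached by the other subsets for either gene. The Ccl6 difference between the CD11b+ subsets missed the threshold when any of their 6 arrays was left out (-1.37 to -1.60, adjusted p up to 0.024), as did that of Ccl9 without any CD103+CD11b+ array, without CD103-CD11b+ replicate 3 or without CD103+CD11b- replicates 2 or 3 (-1.32 to -1.51, adjusted p up to 0.034). The count of 4 became 1 without CD103+CD11b+ replicate 1 or replicate 2, 2 without CD103+CD11b+ replicate 3 or CD103-CD11b+ replicate 3, and 0 without the arrays highest in Ctrb1.

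Cxcl2 had 10.43, 10.71 and 10.06 in CD103+CD11b+ cells, 8.29, 9.43 and 8.98 in CD103-CD11b- cells and 10.18, 10.09 and 10.16 in CD103-CD11b+ cells, against 6.80, 9.02 and 8.28 in CD103+CD11b- cells. The CD103+CD11b- arrays spread over more than 2 on the log2 scale, and both CD11b+ subsets lay above them, by 2.37 (SE 0.42, adjusted p = 0.0027) and 2.11 (SE 0.42, adjusted p = 0.0057). The 2.37 no longer passed without CD103+CD11b+ replicates 1 or 2 (2.21 and 2.35, adjusted p up to 0.015), nor did the 2.11 without any CD103-CD11b+ array, CD103+CD11b+ replicate 1 or CD103+CD11b- replicate 3 (2.09 to 2.23, adjusted p up to 0.023). With a variance trend and robust estimation the adjusted p was 0.030 and 0.046. A list of 17 immediate early and heat shock genes, which tissue digestion can induce and which was drawn up after the values had been seen, averaged 10.30 to 10.46 in CD103+CD11b+ cells, 10.50 to 10.58 in CD103-CD11b+ cells and 9.74 to 10.20 in CD103+CD11b- cells. Some of its genes went the other way. Fos (10.54 and 10.34), Ier3 (7.35 and 6.64), Hspa1a (11.47 and 11.26), Dnajb1 (9.54 and 9.49) and Hspa8 (12.30 and 12.13) averaged more in CD103+CD11b- than in CD103+CD11b+ cells. Egr3 (6.84 and 6.74) and Hspa8 (12.30 and 12.21) averaged more in CD103+CD11b- than in CD103-CD11b+ cells. Within CD103+CD11b- DCs replicate 1 was lowest and replicate 2 highest for this list (9.74 and 10.20), for Cxcl2 and for Ccl3, and the part of the list in these differences was not tested.

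Cxcl9 and Cxcl10 had unlike patterns among DCs. Cxcl9 had 8.74, 9.01 and 9.54 in CD103+CD11b+ cells, 9.58, 8.86 and 9.87 in CD103-CD11b- cells and 9.56, 9.53 and 10.13 in CD103-CD11b+ cells, against 11.14, 10.99 and 11.23 in CD103+CD11b- cells. The CD103+CD11b- arrays were above all other DC arrays, and the log2 differences from them were -2.02 (SE 0.20, adjusted p = 4.2e-05), -1.68 (SE 0.35, adjusted p = 0.0053) and -1.38 (SE 0.20, adjusted p = 7.7e-04) for CD103+CD11b+ cells, CD103-CD11b- cells and CD103-CD11b+ cells. The -1.68 no longer passed without CD103-CD11b- replicates 1 or 2 or any CD103+CD11b- array (-1.40 to -1.75, adjusted p up to 0.033). Cxcl10 had 9.13, 9.27 and 8.89 in CD103+CD11b+ cells, 9.14, 10.34 and 9.64 in CD103-CD11b- cells and 9.89, 10.03 and 9.90 in CD103-CD11b+ cells, against 9.07, 9.9985 and 9.59 in CD103+CD11b- cells. It passed in none of the comparisons among DC subsets, with log2 differences of -0.45, 0.16 and 0.39 from CD103+CD11b- DCs. Whether Cxcl9 and Cxcl10 differed from each other in these contrasts was not tested.

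**Figure D4:**
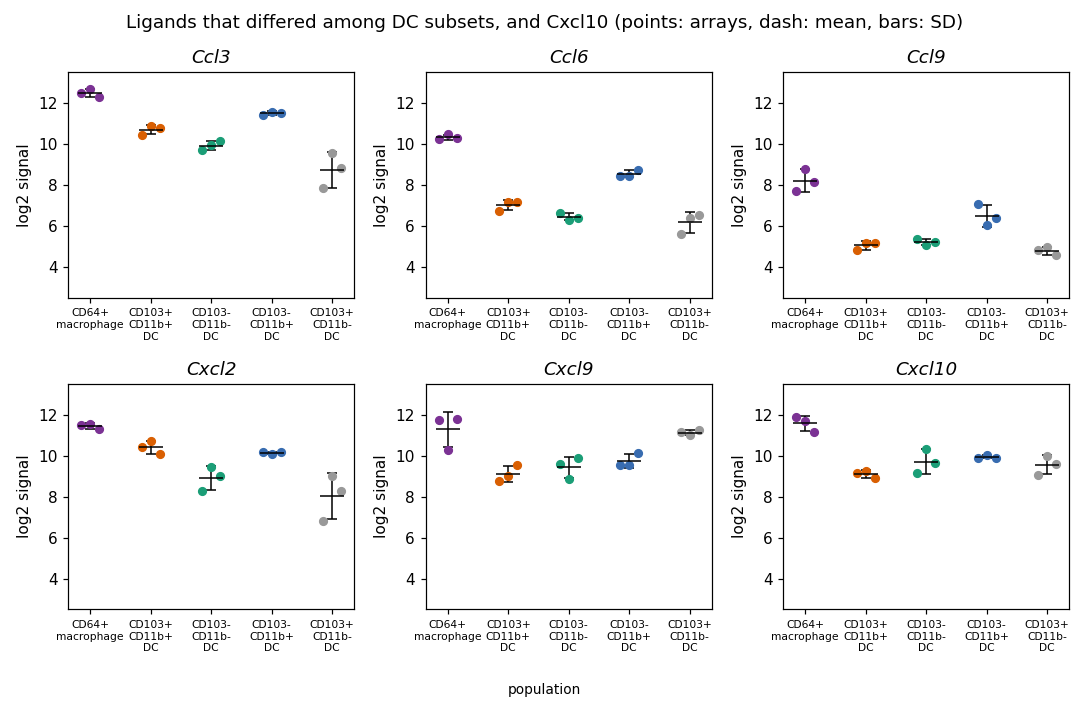
Log2 signal on each array (points), with the mean (dash) and SD (bars) of 3 arrays, for 6 ligands with mϕ at the left of each panel and CD103+CD11b- DCs at the right. Cxcl9 lies at 10.99 to 11.23 in CD103+CD11b- DCs, above all other DC arrays, while Ccl6 and Ccl9 are highest among DCs in CD103-CD11b+ cells, at 8.42 to 8.73 and 6.03 to 7.08.

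CD103-CD11b- DCs were set against both subsets with a single marker. Against CD103-CD11b+ DCs, 1 member was higher (0.356% of all genes were), Cxcr3, and 5 were lower (0.451% of all genes were), all of them ligands. Ccl6 had 6.63, 6.29 and 6.39 in CD103-CD11b- DCs and fell by 2.09 (SE 0.20, adjusted p = 3.4e-05), below every CD103-CD11b+ array. Cxcl16 had 8.63, 8.69 and 8.66 in CD103-CD11b- DCs, against 9.64, 9.85 and 9.90 in CD103-CD11b+ DCs (-1.13, SE 0.08, adjusted p = 2.8e-06), while CD103+CD11b+ DCs had 9.94, 10.03 and 9.88 and CD103+CD11b- DCs 9.67, 9.55 and 9.55. CD103-CD11b- DCs thus held the lowest Cxcl16 signals of all populations. Ccl3 had 9.69, 9.91 and 10.11 in CD103-CD11b- DCs (-1.58, SE 0.29, adjusted p = 0.0069). Ccl2 had 5.69, 4.96 and 4.73 in CD103-CD11b- cells, against 6.42, 6.23 and 6.60 in CD103-CD11b+ cells (-1.29, SE 0.21, adjusted p = 0.0027). Ccl5 had 8.40, 7.64 and 7.62 in CD103-CD11b- DCs (-1.23, SE 0.21, adjusted p = 0.0038). The last 3 genes lay below all CD103-CD11b+ arrays, but their calls depended on single arrays. Ccl3 missed the threshold without any of 11 arrays (all but mϕ replicates 2 and 3 and CD103+CD11b- replicates 1 and 2, difference -1.47 to -1.68, adjusted p up to 0.035), Ccl2 without CD103-CD11b- replicates 2 or 3 or CD103-CD11b+ replicates 1 or 3 (-1.09 to -1.29, adjusted p up to 0.019), and Ccl5 without CD103-CD11b- replicates 2 or 3 or any CD103-CD11b+ array (-1.10 to -1.30, adjusted p up to 0.026). The count of 6 was 3 without CD103-CD11b- replicate 2 or 3, without CD103-CD11b+ replicate 1 or 3, and without the arrays highest in Ctrb1.

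Against CD103+CD11b- DCs, CD103-CD11b- DCs had 6 members higher (1.61% of all genes were), all of them receptors, namely Ccr1, Ccr10, Ccr2, Cxcr4, Cx3cr1 and Ccr6. They had 2 lower (1.05% of all genes were), Cxcr3 and Cxcl9. The arrays did not overlap for any of the 8, which was again not counted over all called genes, and the count was 5 without CD103+CD11b- replicate 1. The median log2 difference was 0.21 over the 19 receptors and 0.01 over the 34 ligands, against 0.02 over all genes.

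**Figure D5:**
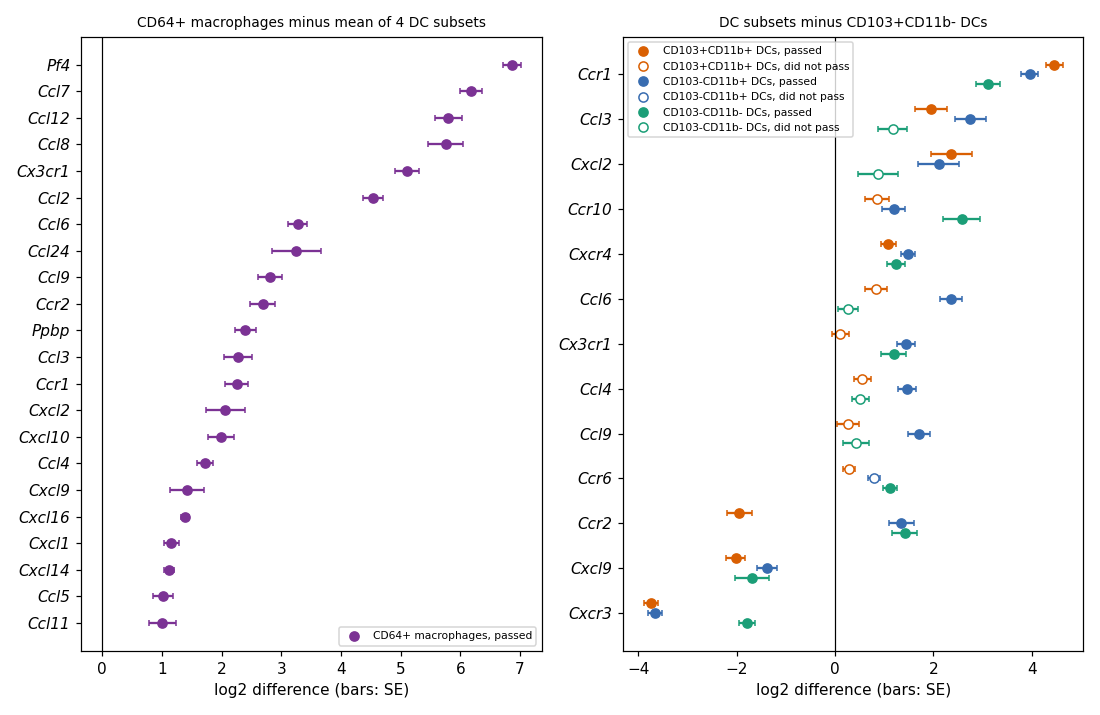
Log2 differences (points) with their SE (bars) of members that passed in mϕ minus the mean of the 4 DC subsets (left) and in any of 3 DC subsets minus CD103+CD11b- DCs (right, open points did not pass). On the left the differences run from 1.01 (Ccl11) to 6.87 (Pf4), and on the right Ccr1 is highest in CD103+CD11b+ DCs at 4.46 and Cxcr3 lowest at -3.74.

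The other 28 members did not pass the F test. Of these, 24 had means under 6 in every population. The dim ligands were Ccl1, Ccl19, which guides DCs to lymph nodes, Ccl20, Ccl26, Ccl28, Cxcl3, Cxcl5, Cxcl11, Cxcl12, Cxcl13, which organizes lymphoid follicles, Cxcl15, Cxcl17 and Cx3cl1, the ligand of Cx3cr1. The dim receptors were Ccr1l1, Ccr3, Ccr4, Ccr8, Cxcr1, Cxcr2, Cxcr5 and the atypical receptors Ackr1, Ackr2, Ackr3 and Ackr4. No detection calls were used, so a dim signal is not evidence that a transcript was lacking. Ccr3 reached 5.64 in replicate 1 of CD103-CD11b+ DCs and stayed at or under 4.35 on the other arrays.

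The remaining 4, Ccl11, Ccl25, Xcl1 and Cxcr6, had a mean of at least 6 in some population. Ccl25, the epithelial chemokine that homes Ccr9+ cells to the small intestine, had 6.41, 8.70 and 5.71 in mϕ, 7.57, 7.70 and 8.02 in CD103+CD11b+ cells, 7.26, 6.81 and 7.40 in CD103-CD11b- cells, 7.28, 6.62 and 6.81 in CD103-CD11b+ cells and 8.10, 7.47 and 7.90 in CD103+CD11b- cells. Replicate 2 of mϕ was the highest of all arrays, and the mean of 22 epithelial markers was likewise 8.18 there, against 6.43 and 6.36 in mϕ replicates 1 and 3. Against the DC mean the log2 difference of mϕ was -0.47 and did not pass (adjusted p = 0.51), but it was -1.35 without mϕ replicate 2 (adjusted p = 2.2e-04) and -1.45 without the arrays highest in Ctrb1 (adjusted p = 6.6e-04), and passed in both. The part of the epithelial markers in the Ccl25 values was not tested. Xcl1, the ligand of Xcr1, had population means of 5.70 to 6.72, the highest in CD103+CD11b- DCs, whose arrays ran from 6.03 to 7.46. Cxcr6, the receptor of Cxcl16, had means of 5.62 to 6.11.

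Genes of signalling downstream of chemokine receptors, together with Xcr1, a chemokine receptor whose symbol lay outside the rule for members, and the related receptors Ccrl2 and Cmklr1, were taken as a separate list of 38, of which 36 were measured. In mϕ against the DC mean, 2 of 36 were higher and 3 lower (3.38% and 2.19% of all genes were), with a median log2 difference of 0.03 beside 1.07 for the ligands. Relative to CD103+CD11b- DCs, 4 rose and 2 fell in the CD103+CD11b+ subset (1.95% and 1.32% of all genes did). In the CD103-CD11b+ subset 2 rose and 2 fell (2.02% and 1.3% of all genes), and in the CD103-CD11b- subset 2 rose and 2 fell (1.61% and 1.05% of all genes). Relative to CD103-CD11b+ DCs, 0 rose and 1 fell in the CD103+CD11b+ subset (0.231% and 0.306% of all genes). In the CD103-CD11b- subset 1 rose and 1 fell (0.356% and 0.451% of all genes), and in mϕ 1 rose and 2 fell (3.02% and 2.16% of all genes). Xcr1 was 1 of the calls in each of these comparisons except CD103+CD11b+ and mϕ against CD103-CD11b+ DCs. Xcr1, the receptor of Xcl1 and a marker of the cDC1 lineage, had log2 differences of -4.70 and -5.37 in CD103+CD11b+ and CD103-CD11b+ DCs from CD103+CD11b- DCs (adjusted p = 3.1e-08 and 1.4e-08). Ccrl2, which binds chemerin without signalling, had 2.88 and 2.56 in the same comparisons (adjusted p = 1.3e-07 and 3.0e-07). Cmklr1, the signalling receptor of chemerin, was higher in mϕ than in the DC mean by 4.79 (adjusted p = 5.6e-13). Tiam1, an exchange factor for Rac, was lower there by a log2 difference of -1.96 (adjusted p = 7.3e-09).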

How the data were processed

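Total RNA from sorted cells, the same number of cells for each population, was amplified, labelled and hybridized to Mouse Gene ST arrays, each with 1 sample. The deposited values are log2 signals that the authors made by Robust Multi-array Average, which corrects the background, normalizes the arrays by quantiles and summarizes the probesets. Quantile normalization removes differences in total RNA, and signals of different genes are not compared. Tissue was digested with collagenase, for which labels and methods give different concentrations. In the array annotation 21789 probesets had 1 gene symbol, 1621 had several and 12146 were not listed. Probesets of 1 symbol were kept, with the highest mean per gene, as in the study's methods, which left 19938 genes. Only 2 members had more than 1 such probeset, and 7 probesets that name members together with other genes (of the Ccl21 and Ccl27 families) were left out. All 53 members matched RefSeq by gene ID.

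Differences were fitted with limma 3.58.1 (R 4.3.3) over all genes, on 9 arrays for comparisons among the 3 DC subsets that carry CD103 or CD11b and on 15 otherwise. The call rule was a log2 difference over 1 with an adjusted p (Benjamini-Hochberg, over all genes) under 0.01. The tests were tried on simulated arrays first. Array medians over genes were 5.00 to 5.14 and Pearson's r between replicates, across genes, was 0.978 to 0.995. Precision is limited by having 3 arrays per population. Members and lists were chosen with earlier results of these data known. Array values are given for the 20 members that passed the F test with a population mean of at least 8, for Ppbp, Ccl11, Ccl25 and Ccr10, added after their values were seen, and others by ranges; of the signalling genes the 4 with the largest passing difference are named. Mean signals of marker lists leave out members of the chemokine set. Alternatives were another probeset summary, scaling, filter, variance model, array weights, set of arrays, call rule and test, a block for replicate number, and leaving out arrays. Promoter sequences and gene order come from RefSeq (GRCm38.p6). Figures were drawn with matplotlib 3.10.9.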

Additional observations from a re-analysis of the deposited data

How the results depend on the processing

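None of the 78 member differences that passed reversed under the 21 to 27 alternatives run for each. Another probeset summary, scaling to the 75th percentile, array weights, an adjusted p under 0.05, a variance trend and a filter on dim genes kept every count within 1.5 times. Limma's treat, which tests against a log2 difference of 1, left 2 members in CD103+CD11b+ against CD103+CD11b- DCs, 4 in CD103-CD11b+ against CD103+CD11b- DCs, 1 in CD103+CD11b+ against CD103-CD11b+ DCs, 0 in CD103-CD11b- against CD103-CD11b+ DCs, 1 in CD103-CD11b- against CD103+CD11b- DCs and 7 in mϕ against CD103-CD11b+ DCs. The methods' t-test at an unadjusted p under 0.05 gave 13, 21, 13, 12 and 14 members in the 5 comparisons among DC subsets in that order, and 4, 4, 0, 0 and 3 after Benjamini-Hochberg adjustment. Without the array highest in Ctrb1 of each population, 0 members passed in CD103+CD11b+ against CD103-CD11b+ DCs and 3 in CD103-CD11b- against CD103-CD11b+ DCs. Single calls lost there were Ccl11 in mϕ against the DC mean, Ccl9 and Ccl11 in mϕ against CD103-CD11b+ DCs, Ccl9 and Ccr2 in CD103-CD11b+ against CD103+CD11b- DCs, all 4 in CD103+CD11b+ against CD103-CD11b+ DCs, and Ccl2, Ccl3 and Ccl5 in CD103-CD11b- against CD103-CD11b+ DCs, with adjusted p up to 0.10. With all 15 arrays where 9 had been fitted, or only the groups compared where 15 had been, lost calls were Ccr10 and Cxcl9 in CD103-CD11b+ against CD103+CD11b- DCs, Cx3cr1 in CD103-CD11b- against CD103+CD11b- DCs, Ccl2 and Ccl5 in CD103-CD11b- against CD103-CD11b+ DCs, and Ccl9, Ccl11, Ccl24, Ccr1, Cxcl1 and Cxcl9 in mϕ against CD103-CD11b+ DCs, with adjusted p up to 0.056. The variance trend ended the calls of Ccl3 and Cxcl2 in CD103+CD11b+ against CD103+CD11b- DCs, Cxcl2 in CD103-CD11b+ against CD103+CD11b- DCs, Ccl3 in CD103-CD11b- against CD103-CD11b+ DCs, and Cxcl9 in CD103-CD11b- against CD103+CD11b- DCs and in mϕ against CD103-CD11b+ DCs (adjusted p up to 0.046). These alternatives use a stricter rule, another error estimate or fewer arrays. With only the groups compared in the fit, Cxcl2 in mϕ against CD103-CD11b+ DCs was gained, at an adjusted p of 1.6e-04. Leaving out each array in turn gave 5 to 7, 10 to 12, 1 to 4, 3 to 7 and 5 to 8 members among DC subsets in the same order, 19 to 22 in mϕ against the DC mean, 16 to 20 in mϕ against CD103-CD11b+ DCs and 25 to 26 over all populations. With the replicate block the counts were 7, 12, 4, 6 and 9 among DC subsets, 22 and 19 for mϕ, and 25 over all populations. Deviations from population means correlated across genes at 0.12 on average for arrays of the same number and at -0.06 for others. Such deviations cancel within each population, so the second average follows largely from the first. Over 0.1 were 18 of 30 same-numbered pairs and 5 of 60 other pairs. Set against the 3 arrays of each other population, an array correlated best with its own number in 40 of 60 cases, and the labels do not say that a number marks a shared sort. With 3 arrays per population and no detection calls, differences against dim signals have no stated floor.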
